A study of Homo sapiens with 18 samples.

Results

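The 10 genes described here encode subunits of the transcription factor AP-1 and other early-response regulators: FOS, FOSB, FOSL1, FOSL2, JUN, JUNB, JUND, EGR1, IER3 and MYC. They were taken by name, as every probe whose platform gene symbol was 1 of these 10, which gave 11 probes: 1 for each gene except MYC, which had 2. They were 10 of 20046 genes named on the array, and all 10 were among the 11600 genes detected on at least 3 arrays and tested. In assembly GRCh38.p14, as RefSeq places the genes, FOS lies at chr14:75278828-75282230, FOSB at chr19:45467996-45475179, FOSL1 at chr11:65892049-65900545, FOSL2 at chr2:28392858-28417317, JUN at chr1:58780791-58784047, JUNB at chr19:12791486-12793315 and JUND at chr19:18279694-18281622. EGR1 lies at chr5:138465479-138469303, IER3 at chr6:30743199-30744547 and MYC on chromosome 8.

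The arrays were Illumina BeadChips, where many beads carry the oligonucleotide that reads a transcript. Total RNA came from 6 established human pancreatic cancer cell lines, with 3 arrays per line. MiaPaCa2, Panc1 and SU8686 are labelled resistant to dasatinib, a drug that blocks tyrosine kinases such as SRC and ABL, and Panc0403, Panc0504 and Panc1005 are labelled sensitive. The labels name no treatment, engineered allele or time point for any sample, so the groups differ by line and by the response assigned to the line. Panc0403 and Panc0504 were on slide 1, Panc1005 and SU8686 on slide 2, and MiaPaCa2 and Panc1 on slide 3. Only slide 2 held a line of each response.

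AP-1 is a dimer of basic leucine zipper proteins, built from a JUN protein (JUN, JUNB or JUND) and either another JUN protein or a FOS protein (FOS, FOSB, FOSL1 or FOSL2). FOS, FOSB, JUN, JUNB, EGR1, IER3 and MYC are known as early-response genes, transcribed soon after growth factors or stress act on a cell, without new protein synthesis, whereas FOSL1 accumulates later and under sustained ERK signalling, and JUND is present in resting cells. MYC drives growth and ribosome production.

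Some of the promoters searched hold letters of sites through which early signals act, and 3 of these promoters are shown. The sequences are from RefSeq, assembly GRCh38.p14, and run from 250 bases before the annotated start to 50 bases after it. EGR1, at chr5:138465229-138465528 on the plus strand, holds 2 CArG boxes, the site of serum response factor, 105 and 83 bases before the start. JUN, at chr1:58783998-58784297 on the minus strand, holds 1 match to TGACNTCA, 67 bases before the start. JUND, at chr19:18281573-18281872 on the minus strand, holds 1 match to the same motif, 200 bases before the start. Capitals mark these matches, and none of them overlap.
EGR1: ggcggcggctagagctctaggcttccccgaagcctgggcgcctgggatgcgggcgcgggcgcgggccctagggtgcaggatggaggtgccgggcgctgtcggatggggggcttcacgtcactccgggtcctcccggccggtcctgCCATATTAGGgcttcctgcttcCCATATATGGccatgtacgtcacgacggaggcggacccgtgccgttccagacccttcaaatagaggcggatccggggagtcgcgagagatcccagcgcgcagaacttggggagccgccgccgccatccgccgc
JUN: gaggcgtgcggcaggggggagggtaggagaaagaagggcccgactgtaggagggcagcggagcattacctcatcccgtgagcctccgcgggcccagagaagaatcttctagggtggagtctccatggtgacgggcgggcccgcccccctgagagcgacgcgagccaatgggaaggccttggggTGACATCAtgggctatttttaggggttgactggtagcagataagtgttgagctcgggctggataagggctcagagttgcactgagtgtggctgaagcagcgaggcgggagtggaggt
JUND: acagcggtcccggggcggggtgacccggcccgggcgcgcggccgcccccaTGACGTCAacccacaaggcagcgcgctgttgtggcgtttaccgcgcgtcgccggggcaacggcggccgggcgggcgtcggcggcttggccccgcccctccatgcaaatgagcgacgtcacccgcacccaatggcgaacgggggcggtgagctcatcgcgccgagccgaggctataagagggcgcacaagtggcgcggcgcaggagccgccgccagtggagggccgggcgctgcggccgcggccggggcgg

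Promoters of 7 of the 10 genes were searched, and those of FOSL1, IER3 and MYC were not. Each motif was searched on both strands. A CArG box was found in 1.29% of 35116 promoters of this length and, among these 7 genes, in EGR1. TGACNTCA was found in 7.72% of promoters and in JUN and JUND here. TGANTCA, the usual AP-1 site, was found in 7.71% of promoters and here in FOSL2, where it reads TGACTCA and begins 4 bases past the start. FOS, FOSB and JUNB had the letters TATAAA between 33 and 30 bases before the start, as 11.5% of promoters had somewhere in the window. These are matches of letters, and no binding was measured.

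Each array detected 31% to 34.98% of its probes (detection p under 0.01), and array medians lay between 110.4 and 135.2 intensity units. Replicates 1 and 3 of a line correlated at 0.994 to 0.996 over the genes tested. Replicate 2 correlated with them at only 0.851 to 0.897, and its nearest array was in every case replicate 2 of the other line on its slide, at 0.915 to 0.991. Replicate 2 is therefore given apart from replicates 1 and 3, except where all arrays are used together, and a line name refers to the label. The response test, also for the lists of other genes, averaged the 3 arrays of each line and so includes replicate 2. KRT8, KRT18 and KRT19, keratins of epithelial cells, were detected on all 18 arrays. EPCAM, KRT7 and CDH1 were detected on 14, the exceptions being replicates 1 and 3 of MiaPaCa2 and Panc1. Of the leukocyte markers, PTPRC, CD3E, CD3D and MS4A1 were detected on 0 of 18 arrays, LYZ on 10, and CD14 and CD68 on all 18. Of the endothelial markers, VWF, KDR and TEK were detected on 0 arrays, PECAM1 on 3 and CDH5 on 4, all 4 of them replicate 2, and the summed level reached 1277 on replicate 2 of the lines other than MiaPaCa2 and Panc1, against at most 198.0 on any array of replicates 1 and 3. Of the fibroblast markers, PDGFRB and FAP were detected on 0 arrays, DCN on 1, LUM on 3, COL3A1 on 4, and COL1A1 and COL1A2 on 8 each.

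All levels below are normalised log2 intensities, and differences are differences of these. Tests are limma's moderated tests fitted to all 11600 genes with Benjamini-Hochberg adjustment. In comparisons of lines or of replicate sets, a gene was called at an adjusted p under 0.05 and a difference of at least 1. Levels of different genes come from different probes and were not compared.

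FOS, the founding member of its family, had the widest span between lines among the AP-1 genes on replicates 1 and 3. Its levels on replicates 1 and 3 were 10.94 and 10.86 in SU8686, 9.23 and 9.51 in Panc1005, 8.40 and 8.53 in Panc1, 9.26 and 7.48 in Panc0504, 7.73 and 7.28 in Panc0403, and 5.99 and 6.11 in MiaPaCa2, where the first of these arrays did not detect it. SU8686 was the highest line and MiaPaCa2 the lowest, with a span of 4.85 between them that was wider than that of 96.9% of genes. SU8686 exceeded Panc1005, the line below it, by 1.53 ± 0.43 (SE, adjusted p = 0.0191), and Panc0403 exceeded MiaPaCa2 by 1.45 ± 0.43 (adjusted p = 0.0117). The neighbours in between did not pass the test (adjusted p from 0.0873 to 0.854). The replicates of Panc0504 lay 1.78 apart, the widest gap between replicates 1 and 3 for any of the 10 genes.

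On replicate 2, FOS was at 12.07 in SU8686, 9.88 in Panc0403, 9.39 in Panc1005, 9.11 in Panc1, 9.07 in Panc0504 and 8.15 in MiaPaCa2. SU8686 and MiaPaCa2 were again the extremes, but the span of 3.92 was narrower than that of FOSB (5.03) and FOSL1 (4.84). FOS was above the mean of replicates 1 and 3 in 6 of 6 lines, although below replicate 1 in Panc0504 (-0.19) and below replicate 3 in Panc1005 (-0.11). The difference was called in Panc0403 (2.37 ± 0.53, adjusted p = 0.0039) and MiaPaCa2 (2.10 ± 0.53, adjusted p = 0.0064), where 1 of the 2 arrays of replicates 1 and 3 detected it. In the other 4 lines it ran from 0.03 to 1.17. With the 6 lines as replicates, the mean difference was 1.17 ± 0.33 (SE), which did not pass (adjusted p = 0.156).

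FOSB, an early-response relative of FOS, was close to background on replicates 1 and 3 and above it on replicate 2. It was detected on 3 of 12 arrays of replicates 1 and 3: both of Panc0504, at 7.25 and 6.73, and the first of Panc0403, at 6.16. The other 9 lay between 5.25 and 5.83. On replicate 2 it was detected in 5 of 6 lines, at 9.85 in SU8686, 8.18 in Panc1005, 7.09 in Panc1, 6.99 in Panc0403 and 6.56 in MiaPaCa2, while Panc0504 was at 4.82 and not detected. Panc0504 was thus the only line with FOSB detected on both replicates 1 and 3 and the only line without it on replicate 2.

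Where FOSB was not detected on 1 side, the fold is given as a bound against the dimmest detected probes of those arrays. Replicate 2 was at least 13.2-fold higher in SU8686 (adjusted p = 9.74e-08), at least 4.07-fold higher in Panc1005 (adjusted p = 2.35e-06), at least 2.00-fold higher in Panc1 (adjusted p = 5.53e-05) and at least 1.43-fold higher in MiaPaCa2 (adjusted p = 0.000407). It was at least 1.80-fold lower in Panc0504 (adjusted p = 1.22e-05). These 5 differences were called, on the values measured on the undetected arrays. The bounds for MiaPaCa2 and Panc0504 are too small to reach a difference of 1 by themselves. Panc0403 differed by 0.99 ± 0.21 (adjusted p = 0.0028), just under the size required, with FOSB detected on 1 of its 2 arrays of replicates 1 and 3.

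FOSL1, which encodes FRA-1, was detected on all 18 arrays. Its replicates 1 and 3 were at 11.72 and 11.76 in Panc1005, 10.97 and 10.84 in SU8686, 9.99 and 9.94 in Panc0403, 9.25 and 9.63 in Panc0504, 9.40 and 9.09 in MiaPaCa2, and 8.26 and 8.09 in Panc1. Each line differed from the next (differences of 0.53 to 1.06, adjusted p from 0.000245 to 0.013), except Panc0504 and MiaPaCa2 (0.19, adjusted p = 0.237). The span of 3.56, an 11.8-fold range, exceeded that of 92.3% of genes.

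On replicate 2, FOSL1 was at 10.997 in MiaPaCa2, 10.82 in Panc1005, 10.55 in Panc1, 10.05 in Panc0403, 9.53 in Panc0504 and 6.16 in SU8686. MiaPaCa2 and Panc1 moved from the bottom of the order to near its top, and SU8686 from near the top to the bottom. Replicate 2 of SU8686 was 26.7-fold below replicates 1 and 3 (a difference of -4.74 ± 0.17, adjusted p = 1.32e-08). Replicate 2 of Panc1 was 5.17-fold above (2.37 ± 0.17, adjusted p = 1.43e-06) and that of MiaPaCa2 3.37-fold above (1.75 ± 0.17, adjusted p = 1.38e-05). On slide 2, the shift of SU8686 differed from that of Panc1005 by -3.82 ± 0.25 (adjusted p = 5.65e-06; 15.1% of genes differed so).

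FOSL2, which encodes FRA-2, was dim everywhere. It was detected on 7 of 12 arrays of replicates 1 and 3, both of Panc0403, Panc0504 and MiaPaCa2 and 1 of Panc1, and on 1 of 6 of replicate 2, Panc1005. The detected arrays lay between 6.13 and 6.56, and the highest array that did not detect it was at 6.02. Panc1005 had FOSL2 on replicate 2 at 6.52 and not on replicates 1 and 3, at least 1.29-fold higher (adjusted p = 0.000375). Panc0504 showed the opposite, at least 1.26-fold lower on replicate 2 (adjusted p = 0.000418). Both were called, but neither bound reaches a difference of 1 by itself. Between lines, 1 of 15 pairs was called: SU8686, where it was not detected, was below Panc0504 by at least 1.27-fold.

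**Figure D1:**
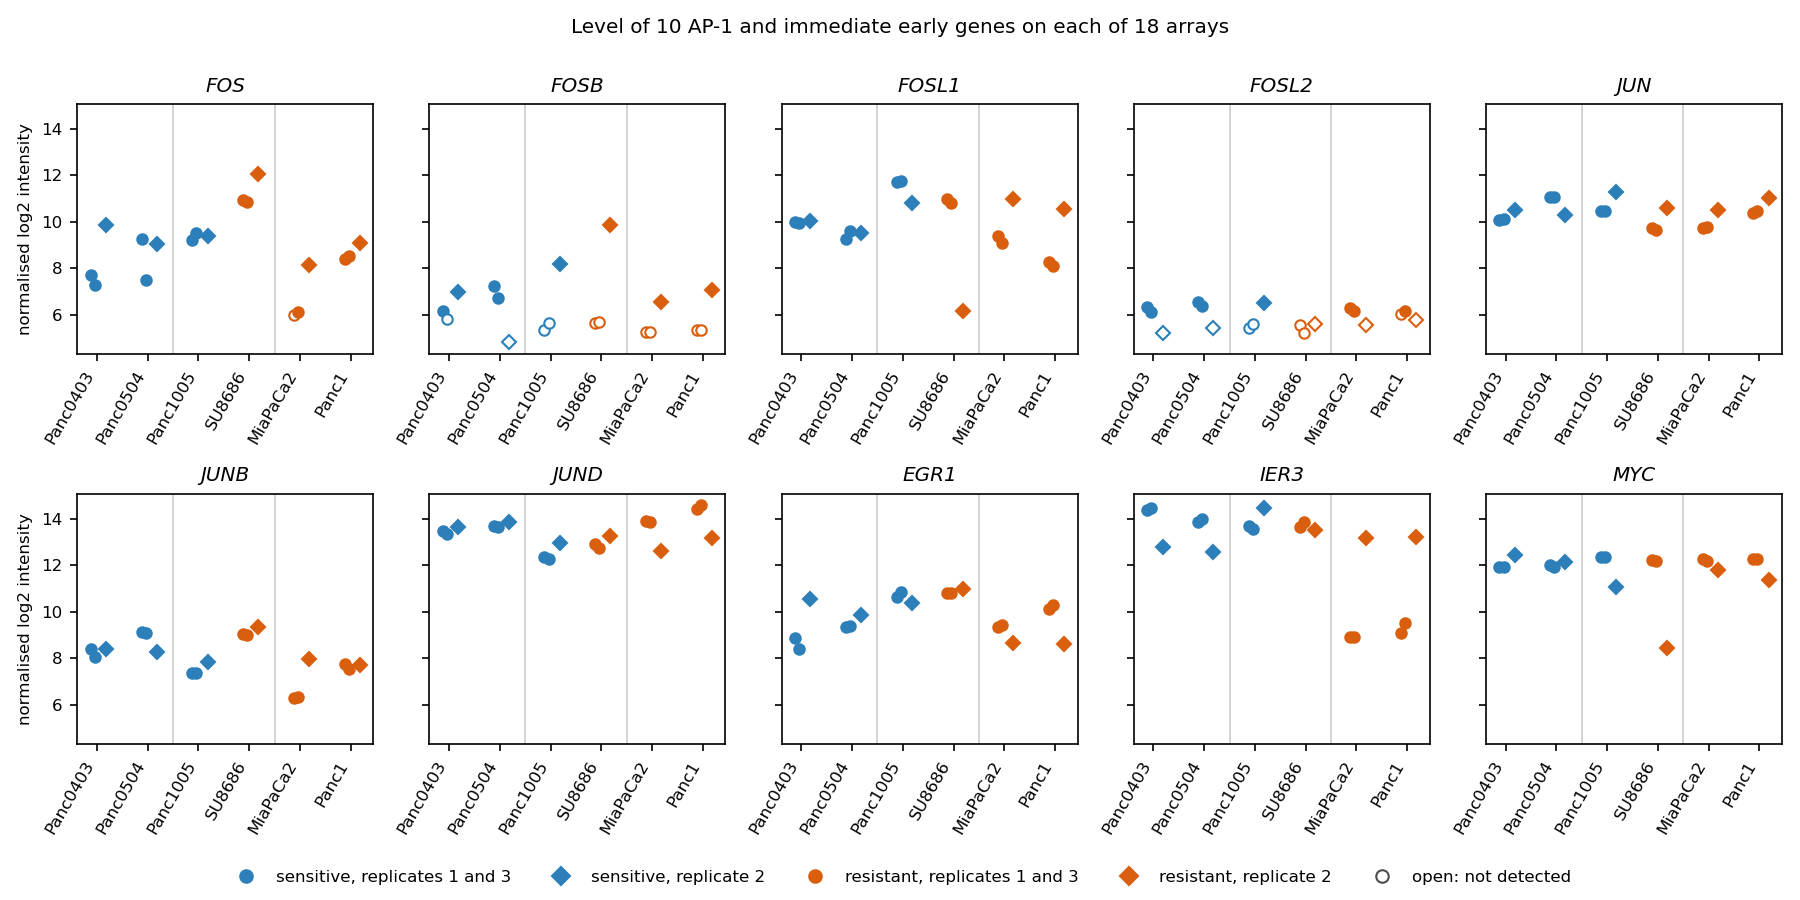
Normalised log2 intensity of each gene (y axis) on each of the 18 arrays, by labelled line (x axis), with circles for replicates 1 and 3, diamonds for replicate 2, open symbols where the probe was not detected, and vertical lines between the 3 slides. IER3 sits near 9 on replicates 1 and 3 of MiaPaCa2 and Panc1 only, and replicate 2 of SU8686 stands alone for FOSL1 (6.16) and MYC (8.44).

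JUN, the subunit activated by the kinase JNK, was detected on all 18 arrays, between 9.67 and 11.29. Replicates 1 and 3 were at 11.07 and 11.05 in Panc0504, 10.46 and 10.45 in Panc1005, 10.38 and 10.49 in Panc1, 10.10 and 10.14 in Panc0403, 9.72 and 9.80 in MiaPaCa2, and 9.75 and 9.67 in SU8686. Panc0504 was the highest line, above MiaPaCa2 by 1.30 ± 0.08 (adjusted p = 1.44e-07) and above SU8686 by 1.35 ± 0.08 (adjusted p = 2.09e-07), the 2 pairs called. On replicate 2 the values lay between 10.31 in Panc0504 and 11.29 in Panc1005. JUN was higher on replicate 2 in 5 of 6 lines, with Panc0504 the exception. All 6 differences had an adjusted p under 0.05 (2.67e-05 to 0.00927), but they were under 1 in size and so were not called. The shift of Panc0403 exceeded that of Panc0504, on the same slide, by 1.13 (adjusted p = 0.00131), a contrast in which 4.9% of genes were called.

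JUNB, a weaker activator than JUN in many settings, was at 9.12 and 9.10 in Panc0504, 9.06 and 8.99 in SU8686, 8.42 and 8.06 in Panc0403, 7.78 and 7.54 in Panc1, 7.39 and 7.36 in Panc1005, and 6.30 and 6.34 in MiaPaCa2 on replicates 1 and 3. Both responses were spread over this range. SU8686 exceeded Panc1005 on its own slide by 1.65 ± 0.12 (adjusted p = 1.23e-05), and MiaPaCa2 was below Panc1 on theirs by -1.34 ± 0.12 (adjusted p = 7.55e-05). Panc0504 and SU8686 did not differ beyond their spread (0.08, adjusted p = 0.567). On replicate 2 the lines lay between 7.70 and 9.36, and MiaPaCa2 was called, at 7.97, 3.14-fold above its other replicates (adjusted p = 7.71e-06). Its shift differed from that of Panc1 by 1.61 ± 0.21 (adjusted p = 0.00386; 2.43% of genes differed so).

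JUND, the JUN protein of resting cells, lay between 12.30 and 14.59 on the 18 arrays. Replicates 1 and 3 were at 14.42 and 14.59 in Panc1, 13.90 and 13.85 in MiaPaCa2, 13.69 and 13.65 in Panc0504, 13.47 and 13.37 in Panc0403, 12.91 and 12.76 in SU8686, and 12.36 and 12.30 in Panc1005. The lines of slides 1 and 3 were above both lines of slide 2. On replicate 2 JUND was lower in Panc1 (13.19, a difference of -1.31 ± 0.11, adjusted p = 4.61e-06) and MiaPaCa2 (12.64, -1.24 ± 0.11, adjusted p = 7.38e-06), and the other 4 lines differed by 0.20 to 0.63.

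Across arrays, JUND and FOSL1 ran opposite to each other. Over the 12 arrays of replicates 1 and 3 their levels correlated at r = -0.992. Over all 18 arrays r was -0.711, with replicate 2 of SU8686, low in FOSL1 without a matching rise in JUND, away from the others. The arrays share lines and slides, so these are descriptions of 6 lines, not of independent samples. Among the other pairs, the strongest over 12 arrays were EGR1 with FOSL2 (-0.802) and EGR1 with MYC (0.785). Over 18 arrays these were at -0.466 and -0.141. FOS and EGR1 correlated at 0.745 over 12 arrays and 0.693 over 18, and FOSB and MYC at -0.699 and -0.851. FOSB was detected on only 3 of the 12 arrays and FOSL2 on 7. MYC lay between 11.91 and 12.38 on those arrays, so its correlations there describe a narrow range. Over 18 arrays, replicate 2 of SU8686 was the highest array for FOSB (9.85) and the lowest for MYC (8.44), away from the others.

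**Figure D2:**
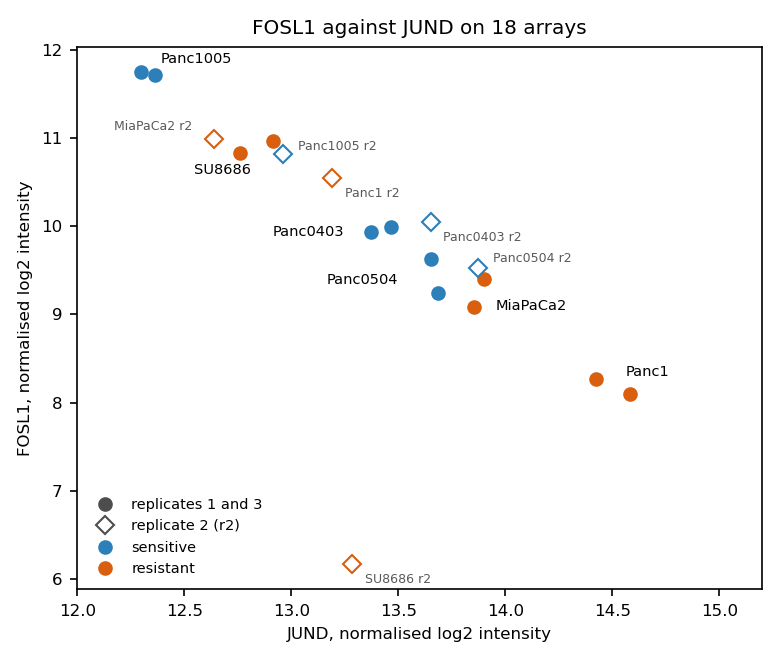
FOSL1 (y axis) against JUND (x axis), both as normalised log2 intensity, with 1 point per array, filled circles for replicates 1 and 3, open diamonds for replicate 2 (r2), and colour for the response. The points fall along a descending line from Panc1005 to Panc1, and replicate 2 of SU8686 lies far below it at 6.16 for FOSL1 and 13.28 for JUND.

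EGR1, a zinc finger factor induced through serum response factor, was detected on all 18 arrays. Levels on replicates 1 and 3 were 10.80 and 10.81 in SU8686, 10.66 and 10.87 in Panc1005, 10.13 and 10.28 in Panc1, 9.35 and 9.45 in MiaPaCa2, 9.37 and 9.39 in Panc0504, and 8.89 and 8.43 in Panc0403. The lines of slide 2 were highest and did not differ beyond their spread (0.04, adjusted p = 0.853), nor did MiaPaCa2 and Panc0504 (0.02, adjusted p = 0.918). The other neighbours differed by 0.56 to 0.81 (adjusted p from 0.00247 to 0.00533). On replicate 2, EGR1 was at 10.98 in SU8686, 10.56 in Panc0403, 10.39 in Panc1005, 9.86 in Panc0504, 8.68 in MiaPaCa2 and 8.64 in Panc1. It was higher than on replicates 1 and 3 in Panc0403 (1.90 ± 0.17, 3.74-fold, adjusted p = 1.08e-05), where FOS was also higher, and lower in Panc1 (-1.56 ± 0.17, 2.96-fold, adjusted p = 3.02e-05).

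IER3, an early-response protein that affects cell survival and ERK signalling, showed the widest span of the 10 genes. For replicates 1 and 3 it was at 14.40 and 14.45 in Panc0403, 13.89 and 14.01 in Panc0504, 13.65 and 13.86 in SU8686, 13.69 and 13.58 in Panc1005, 9.11 and 9.51 in Panc1, and 8.91 and 8.94 in MiaPaCa2. The lines thus fell into 4 high ones and 2 low ones, and SU8686, a resistant line, was among the high ones. MiaPaCa2 and Panc1 were below each of the other 4 lines by 4.33 to 5.50 (SE 0.13 in each, adjusted p from 1.63e-10 to 1.41e-09), and the 8 contrasts between these sets were the only pairs called. The span of 5.50 exceeded that of 98.2% of genes.

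On replicate 2, IER3 was at 14.49 in Panc1005, 13.52 in SU8686, 13.22 in Panc1, 13.19 in MiaPaCa2, 12.80 in Panc0403 and 12.56 in Panc0504, and no line stood apart as low. Replicate 2 exceeded replicates 1 and 3 by 19.2-fold in MiaPaCa2 (4.26 ± 0.16, adjusted p = 1.13e-08) and 15.1-fold in Panc1 (3.91 ± 0.16, adjusted p = 1.88e-08). It was 3.09-fold lower in Panc0403 (-1.63 ± 0.16, adjusted p = 1.92e-05) and 2.61-fold lower in Panc0504 (-1.38 ± 0.16, adjusted p = 4.5e-05).

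The epithelial markers were low on the arrays low in IER3. On replicates 1 and 3 of MiaPaCa2 and Panc1, 3 of the 6 markers EPCAM, KRT7, KRT8, KRT18, KRT19 and CDH1 were detected, with a summed level of 5146 to 5498 on the linear scale. All 6 were detected on the other arrays of replicates 1 and 3, with sums of 50192 to 78600, and on replicate 2 of MiaPaCa2 and Panc1, with sums of 26223 to 32564. On replicate 2 of the other 4 lines all 6 were detected too, with sums of 56539 to 68719, inside the range of their replicates 1 and 3, while IER3 was lower there in Panc0403 and Panc0504. EPCAM, KRT7 and CDH1 were not detected on any of the 4 arrays low in IER3. The summed level of the fibroblast markers was higher on those 4 arrays, with 2 to 3 of 7 detected (sum 10256 to 16178). On the other 8 arrays of replicates 1 and 3, 0 to 2 were detected (sum 287.4 to 1604). The markers did not move together: COL1A1, FAP, LUM and PDGFRB were not detected on those 4 arrays, and COL1A1 was detected on 4 of the other 8. The part of either marker set in the IER3 result was not tested.

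MYC had the narrowest span of the 10 genes across lines on replicates 1 and 3 and a wide one on replicate 2. Its brighter probe lay between 11.91 and 12.38 on all 12 arrays of replicates 1 and 3. The line means of this probe spanned 0.44, less than in most genes (percentile 5.18, against a median span of 1.30 over all genes), and 0 of 15 line pairs were called. Those of the second probe, which is dimmer, spanned 0.98. On the brighter probe, Panc0403 and Panc0504, at means of 11.93 and 11.98, were slightly below the other 4 lines, and the step from SU8686 to Panc0504 was 0.24 (adjusted p = 0.0203).

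On replicate 2, MYC was at 12.46 in Panc0403, 12.16 in Panc0504, 11.79 in MiaPaCa2, 11.38 in Panc1, 11.06 in Panc1005 and 8.44 in SU8686. Both slide 1 lines were above their replicates 1 and 3, and SU8686 was below every other array. The difference in SU8686 was 13.8-fold (-3.78 ± 0.10, adjusted p = 1.53e-09) and that in Panc1005 2.49-fold (-1.32 ± 0.10, adjusted p = 1.69e-06). These were the 2 lines in which it was called, and their shifts differed by -2.47 ± 0.14 (adjusted p = 2.62e-06). The second probe was also lower on replicate 2 in both. In SU8686 it was at 8.45 and 8.65 on replicates 1 and 3 and not detected on replicate 2, at least 5.86-fold lower, and in Panc1005 it was at 9.09 and 8.93 against 7.38.

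**Figure D3:**
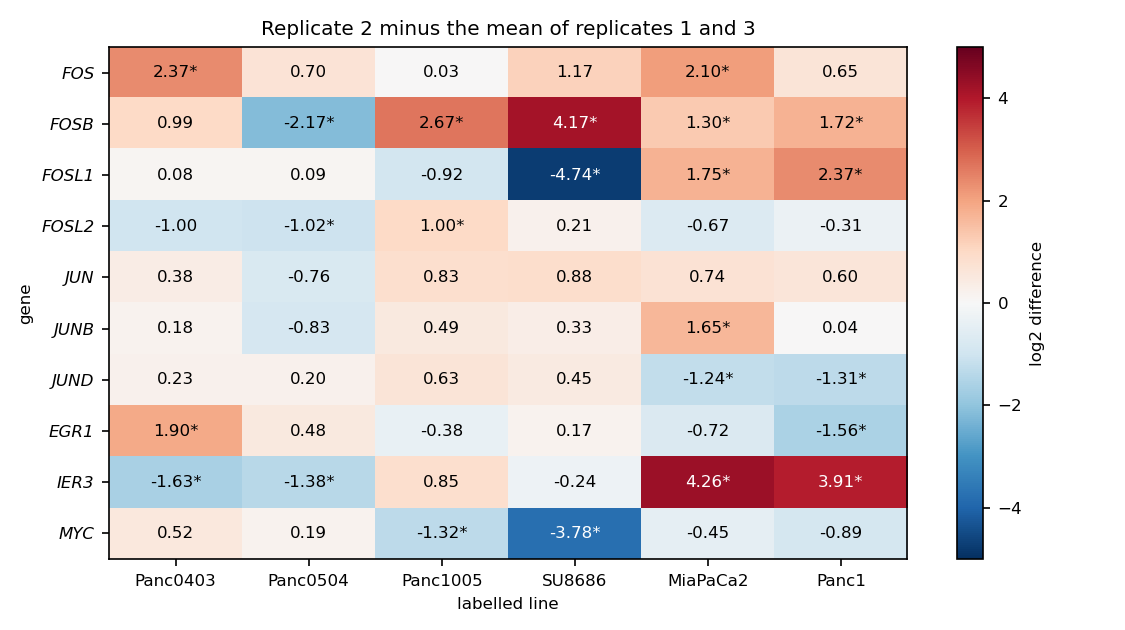
Difference in normalised log2 intensity between replicate 2 and the mean of replicates 1 and 3 for each gene (rows) in each labelled line (columns), with red for higher and blue for lower on replicate 2 and an asterisk where it was called. The largest values are -4.74 for FOSL1, 4.17 for FOSB and -3.78 for MYC in SU8686, and 4.26 and 3.91 for IER3 in MiaPaCa2 and Panc1, and the row of JUN has no asterisk.

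The comparison of responses asked whether these genes separate resistant from sensitive lines. With the 3 arrays of each line averaged and the line as replicate, 0 of the 10 genes passed an adjusted p of 0.05, as did 0 of all 11600 (0% called, although 2191 genes had an unadjusted p under 0.05). For every one of the 10 the line means of the responses overlapped, with all arrays, with replicates 1 and 3, and with replicate 2. Over all genes, 21.8%, 17.9% and 22.7% did not overlap in these sets. The median difference, resistant minus sensitive, was -0.24 over the 10 genes, with 3 higher and 7 lower, and 0.04 over all genes.

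IER3 came nearest, and was the gene of the 10 with an unadjusted p under 0.05. Resistant lines were at 11.54 ± 1.85 and sensitive lines at 13.76 ± 0.24 (SD, n = 3 lines in each group), a difference of -2.22 ± 0.87 (SE, adjusted p = 0.253 by limma). On replicates 1 and 3 the difference was -3.34 (adjusted p = 0.316 by limma), with resistant lines at 10.66 ± 2.69 and sensitive lines at 14.002 ± 0.40. On replicate 2 it was 0.03 (adjusted p = 0.985). Within slide 2, SU8686 minus Panc1005 was 0.12 on replicates 1 and 3, whereas slide 3 minus slide 1 was -5.07, and there slide cannot be told apart from response. Without SU8686 the difference was -3.29 and passed (adjusted p = 0.00141), as did 2333 of all 11600 genes and none of the other 9.

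For the other 9 genes the adjusted p ran from 0.364 for FOSL1 (-0.93 ± 0.53, SE) to 0.947 for FOS (0.15 ± 1.09). These averages can hide opposite signs. On replicates 1 and 3 and on replicate 2, FOSB was at -0.73 and 1.17, JUND at 0.60 and -0.46, and EGR1 at 0.54 and -0.84. In the same order, MYC was at 0.15 and -1.36, JUN at -0.58 and 0.01, and JUNB at -0.57 and 0.16. FOS, FOSL1 and FOSL2 kept their sign. For FOS, resistant lines were at 8.91 ± 2.28 and sensitive lines at 8.76 ± 0.56 (SD, n = 3 lines in each group), its highest and lowest lines both being resistant. JUNB pointed opposite ways on the slides: SU8686 was above Panc1005 by 1.65, and slide 3 was below slide 1 by -1.68, on replicates 1 and 3. A test of whether the response difference itself differed between replicate 2 and replicates 1 and 3 called 0 of the 10 genes, against 0.00862% of all genes. IER3 had the largest shift, 3.37 ± 1.33 (SE, adjusted p = 0.364). Without SU8686, 3 of the 10 were called, against 7.21% of all genes: IER3 (4.81, adjusted p = 0.0357), FOSL1 (2.31, adjusted p = 0.0482) and JUND (-1.63, adjusted p = 0.0394). Without Panc1005, 0 of the 10 were called, against 9.63% of all genes, with IER3 at 4.15 (adjusted p = 0.128), JUND at -0.92 (adjusted p = 0.370) and FOSL1 at -0.29 (adjusted p = 0.946), its sign turned.

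The design also sets single lines against each other. On replicates 1 and 3, 58 of 150 tests (15 pairs of 10 genes) were called, against 24.8% of all tests, and on replicate 2, 55 of 150 against 25.2%. FOS and FOSL1 were called in 10 of 15 pairs each, JUNB in 9, IER3 in 8, JUND and EGR1 in 7 each, FOSB in 4, JUN in 2, FOSL2 in 1 and MYC in 0. The median gene was called in 3. The calls rest on the close agreement of replicates 1 and 3: with replicate 2 counted in the spread of a line, 18 of 150 were called, with replicates 2 and 3 alone 0, and with replicates 1 and 2 alone 1. Those for FOSB and FOSL2 use values of undetected arrays, with bounds of at most 1.91-fold. With probes detected on at least 9 arrays, which leaves out both genes, 53 tests were called.

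Pairs on 1 slide are free of differences between slides. For replicates 1 and 3, 5 of 30 such tests were called, against 4.98% of all tests. SU8686 exceeded Panc1005 in FOS and JUNB (4.84% of genes called), and MiaPaCa2 was below Panc1 in FOS (-2.41) and JUNB (-1.34) and above it in FOSL1 (1.06; 2.69% of genes called). Panc0403 and Panc0504 differed in 0 of the 10 (7.41% of genes called). FOS and JUNB were the genes called in both of the other same-slide pairs on these replicates. On replicate 2, SU8686 again exceeded Panc1005 in FOS (2.67) and JUNB (1.49), among 5 genes called (19.6% of all genes). FOSB was higher too, and FOSL1 and MYC lower. Between MiaPaCa2 and Panc1, 0 were called on replicate 2 (0.716% of all genes), with FOS at -0.96 and JUNB at 0.27. Between Panc0403 and Panc0504, FOSB alone was called (0.56% of all genes), where Panc0504 did not detect it.

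Between replicate 2 and replicates 1 and 3, 23 of 60 tests (6 lines of 10 genes) were called, against 24.3% of all tests. MiaPaCa2 had 6 (24.4% of genes called) and Panc1 5 (25.1%), while Panc0403 (17.9%), Panc0504 (22.2%), Panc1005 (28.1%) and SU8686 (27.9%) had 3 each. MiaPaCa2 and Panc1 shared the calls for FOSB, FOSL1 and IER3, all higher, and JUND, lower. In Panc0403 FOS and EGR1 were higher and IER3 lower, and in Panc0504 FOSB, FOSL2 and IER3 were all lower. No gene was called in 1 direction in all 6 lines, and with the lines as replicates 0 of the 10 passed, against 1% of all genes. Each replicate 2 is a single array, assumed to vary as replicates 1 and 3 do. With probes detected on at least 9 arrays, which leaves out FOSB and FOSL2, 16 tests were called.

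Other genes of the pathway are given from lists. For other bZIP proteins, partners or competitors of AP-1, 9 of 17 were measured. None of these passed the response test, and 7 were lower in resistant lines, with a median of -1.43 (0.04 over all genes). MAFF, a small MAF protein, was at 6.85 ± 1.14 in the resistant lines and at 9.29 ± 0.33 in the sensitive ones (SD, n = 3 lines in each group; difference -2.44, adjusted p = 0.238 by limma). ATF3, a stress-induced partner of JUN, differed by -1.89 (adjusted p = 0.237), and BATF by -1.92 (adjusted p = 0.363). Within slide 2, 0 of the 9 were called on replicates 1 and 3 and the median was -0.11.

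For other immediate early genes, 21 of 29 were measured, 0 passed the response test and the median was -0.32. KLF4, a zinc finger factor of epithelia, differed by -1.82 (adjusted p = 0.291) and SGK1, a kinase induced by serum and steroids, by 1.74 (adjusted p = 0.237). On replicate 2, 10 of the 21 were higher and 4 lower in MiaPaCa2 (median 0.93), and 10 were higher and 4 lower in Panc1 (median 0.82), against 13.2% and 13.7% of all genes higher and 11.2% and 11.4% lower. ZFP36, which encodes an RNA-binding protein that destabilises early-response mRNAs and is named because of its values, was 35.7-fold higher in MiaPaCa2 (8.26 against 13.42) and 31.3-fold higher in Panc1 (9.05 against 14.02). SGK1 was 21.7-fold lower in MiaPaCa2 and 16.5-fold lower in Panc1. In the other 4 lines the median of the list lay between -0.65 and 0.29.

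For kinases and factors upstream of AP-1, 21 of 29 were measured and 0 passed the response test (median 0.14). RPS6KA2, a kinase downstream of ERK, differed by -2.998 (adjusted p = 0.251) and MAP2K1, the kinase that activates ERK, by -1.16 (adjusted p = 0.249). For genes known as AP-1 targets, 19 of 32 were measured and 0 passed. Of the 19, 15 were lower in resistant lines, with a median of -0.92 against 0.04 over all genes. ITGA2, an integrin subunit, differed by -2.78 (adjusted p = 0.242) and MMP7, a matrix protease, by -3.19 (adjusted p = 0.317). On replicate 2 of Panc1005, 8 of the 19 were higher and 1 lower (median 0.96), against 14.7% and 13.4% of all genes. Replicate 2 is given for this list in Panc1005 only, which does not stand for the other lines. For survival genes, listed beside IER3, 14 of 16 were measured and 0 passed (median -0.29). BCL2L1, an inhibitor of apoptosis, differed by -1.86 (adjusted p = 0.237) and TNFAIP3, an inhibitor of NF-kB signalling, by -1.87 (adjusted p = 0.239).

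MYC's partners and targets can be set beside MYC itself. Of the 33 measured of 38 known MYC targets, mostly genes of ribosome production, nucleotide synthesis and protein folding, 0 passed the response test, and the median was 0.20. On replicate 2 of SU8686, where MYC was 13.8-fold lower, 12 of the 33 were lower and 1 higher (13.5% and 14.5% of all genes), 28 had a difference below 0 and the median was -0.67. The called genes of largest size, named after their values were seen, were NOLC1 (7.73-fold lower), BOP1 (4.24-fold) and NME1 (4.02-fold), and FBL was 2.47-fold higher. On replicate 2 of Panc1005, where MYC was 2.49-fold lower, 6 were lower and 3 higher, with a median of -0.45. These shares are near the 13.4% of all genes lower and 14.7% higher there. On replicate 2 of Panc0504, 11 were higher and 1 lower with a median of 0.71 (10.9% and 11.4% of all genes), while MYC differed by 0.19. The medians of the other 3 lines lay between -0.12 and 0.18.

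On replicates 1 and 3, 33 of 33 MYC targets were below 0 in SU8686 minus Panc1005, with a median of -0.50 (0.0076 over all genes), and 3 were called lower, against 1.16% of all genes. The brighter MYC probe did not pass the test there (-0.16, adjusted p = 0.155), and the dimmer one was lower on both SU8686 arrays, as given above. Of MYC's partners, 18 of 22 were measured and 0 passed the response test (median 0.13). MXD4, an antagonist of MYC, differed by 1.29 (adjusted p = 0.266) and its relative MXD1 by -1.21 (adjusted p = 0.242). On replicate 2 of SU8686, 4 of the 18 partners were lower and 0 higher, against 13.5% and 14.5% of all genes. They were AURKA, a mitotic kinase (3.69-fold lower, adjusted p = 1.85e-07), MAX, PVT1 and CIP2A. MAX is the dimer partner of MYC, PVT1 a transcript beside MYC, and CIP2A an inhibitor of the phosphatase PP2A. MAX, PVT1 and CIP2A were detected on replicates 1 and 3 and not on replicate 2.

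**Figure D4:**
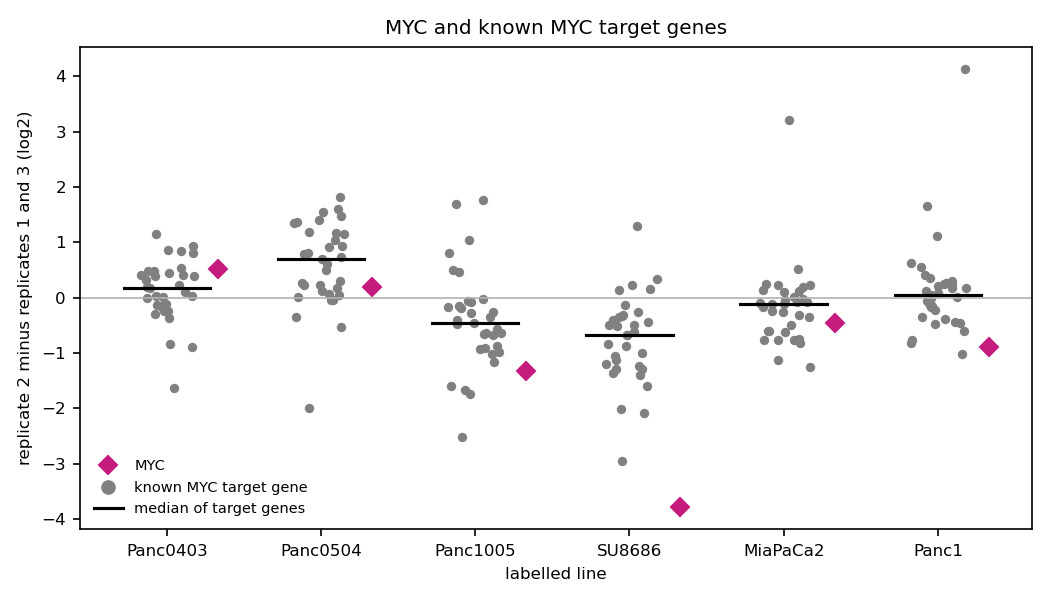
Difference in normalised log2 intensity between replicate 2 and the mean of replicates 1 and 3 (y axis) for 33 known MYC targets (grey points) and MYC (diamonds), by labelled line (x axis), with a bar at the median of the targets. The median is lowest in SU8686 (-0.67), where MYC is at -3.78, and highest in Panc0504 (0.71), where MYC is at 0.19.

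For each of the 9 genes whose line means spanned at least 1, the genes outside the set with the most similar pattern over the 18 arrays were found by Pearson r. These are descriptions of 6 lines and 3 slides. IER3 had the closest matches, UBE2E2 (0.986), GNA15 (0.979) and MID1 (0.974). For JUNB they were MVP (0.944), the probe annotated MIR21 (0.924) and ZNFX1 (0.915), and for EGR1 DIPK1A (0.933), CYP4V2 (0.908) and TMEM35B (0.897). JUND ran most closely with NAGLU (0.926), CHD9 (0.925) and TMEM135 (0.920), FOS with PPIC (0.922), RING1 (0.914) and IFITM2 (0.910), and FOSL1 with ZBED4 (0.908), CKAP2L (0.903) and APEX2 (0.902). FOSB matched MICALCL (0.913), ATXN7L3B (0.896) and GRIN1 (0.896), and FOSL2 matched LONP1 (0.912), PRKAB2 (0.901) and MKRN2 (0.899), although both were near background on many arrays. JUN had no match above 0.801, which was with CALU.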

How the data were processed

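Total RNA of 6 cell lines, described by the labels as biological triplicates, was hybridised to 18 arrays. Nothing ties the replicate numbers to a culture or day. The slide of an array is part of its code in the labels.

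Per the file headers, the deposited intensity table gives the bead intensity and a detection p-value of 48107 probes per array, on a linear scale with no background subtraction or normalization visible. The deposited series matrix holds log2 values of 47323 of these probes, with 13 missing. It served only as an alternative. The sources used here do not give its normalization or the image software. The table held 0 columns of other samples.

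The intensities were background corrected by normexp with negative controls inferred from the detection p-values and an offset of 16, quantile normalized over 18 arrays and set to log2 (neqc, limma 3.58.1, R 4.3.3). The offset makes differences of dim genes too small. The number of arrays limits the precision. Probes detected (p under 0.01) on at least 3 arrays were kept, and each gene was represented by its brightest such probe, which gave 15405 named probes and 11600 genes. The platform annotation named 1 symbol for 30113 probes. Of these, 30074 were matched by Entrez identifier to current records, which changed 0 symbols.

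The response test used limma on 3 against 3 line means. A second limma fit gave each line a mean for replicates 1 and 3 and a value for replicate 2, and served the 15 line pairs and the replicate 2 contrasts. Another tested the 6 line differences between replicate 2 and replicates 1 and 3 for a response effect. The contrast of replicate 2 shifts between lines of a slide came from the second fit and was added after the data were seen. P-values measure the spread between these samples, which within a line may be technical. The response, line pair, replicate 2 and response shift tests were each tried on simulated data with known differences.

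Same-numbered arrays of resistant and sensitive lines had deviations correlated at -0.051 to 0.764, over 0.1 in 9 of 27 pairings. The main tests did not pair samples by number, and a replicate block served as an alternative. What the correlated deviations share was not tested. All 10 genes are named. From each list, the 2 genes of largest response difference and the 2 of largest difference between slides 3 and 1 on replicates 1 and 3 could be named, and others are marked. The members and lists were chosen with earlier results of these data known. Alternatives changed the background correction, offset, values, filter, detection threshold, replicates, lines, slide block and replicate block. Promoters came from RefSeq, and figures were drawn with matplotlib 3.10.9.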

Additional observations from a re-analysis of the deposited data

Results flagged for a closer look

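In 22 tests for a sample far from the others of its response (9 arrays each), 4 results stood out, on 2 arrays. Chance gives about 1 in 20 for independent samples, a rate that does not hold for arrays that share lines. FOSB on replicate 2 of SU8686 was at 9.85, with the next resistant array at 7.09. The brighter MYC probe was at 8.44 on replicate 2 of SU8686, with the next resistant array at 11.38, and at 11.06 on replicate 2 of Panc1005, with the next sensitive array at 11.91. The dimmer MYC probe was at 4.91 on replicate 2 of SU8686, where it was not detected, with the next at 8.02. Both arrays are replicate 2 of slide 2, and 3 of the 4 results are of MYC probes.

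The difference between replicate 2 and replicates 1 and 3 was tested between the lines of a slide, in limma's fit to all genes. Between Panc0403 and Panc0504, 4 of the 10 genes were called (4.9% of genes): the shift was higher in Panc0403 by 3.16 for FOSB (adjusted p = 0.000336), 1.13 for JUN (adjusted p = 0.00131), 1.01 for JUNB (adjusted p = 0.0152) and 1.42 for EGR1 (adjusted p = 0.00632). Between SU8686 and Panc1005, 4 were called (15.1% of genes), with differences of 1.501 for FOSB (adjusted p = 0.00368), -3.82 for FOSL1 (adjusted p = 5.65e-06), -1.09 for IER3 (adjusted p = 0.00494) and -2.47 for MYC (adjusted p = 2.62e-06). Between MiaPaCa2 and Panc1, JUNB alone was called, at 1.61 (adjusted p = 0.00386; 2.43% of genes). Each shift rests on a single replicate 2 array per line.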

How the results depend on the processing

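For the response, 0 genes were called as reported, and leaving out replicates 1, 2 or 3 gave 0 to 2. Replicate 2 alone gave 22, a slide block 3, slide 2 alone 3, leaving out Panc1005 365 and SU8686 2333, the line as a random block over 18 arrays 759, and the replicate block with it 638. Apart from IER3 without SU8686, 0 of the 10 genes were called in these. Of the 150 line pair tests, 58 were called as reported, 18 with all 3 replicates, 20 with the replicate block over these 18 arrays, and 0 to 1 without replicate 1 or 3. With the replicate block, 58 of the 150 were called on replicates 1 and 3, and 0 of the 10 genes for the response. It was not run for the replicate 2 and shift results, which contrast the replicate numbers themselves. The 23 calls of replicate 2 became 0 with the line as replicate. With probes detected on at least 9 arrays, which leaves out FOSB and FOSL2, they became 16, and the line pair calls 53. The 1 gene of the shift test, FST, became 0 with probes detected on at least 9 arrays and without Panc0403 (0), Panc0504 (0), MiaPaCa2 (0) or Panc1 (0), 1117 without Panc1005 and 836 without SU8686. The cause was not tested.

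The sign of the response difference turned for single genes, all but MYC between slides 3 and 1 uncalled. Without SU8686 it was -1.04 for FOS, 0.029 for FOSL2, -0.40 for EGR1 and 0.0063 for MYC. Without Panc0403 it was -0.083 for FOS and -0.19 for EGR1, without Panc0504 -0.065 for EGR1, and without Panc1005 -0.11 for JUND. Without MiaPaCa2 it was 0.17 for FOSB and 0.18 for JUNB, and without Panc1 0.052 for FOSB and -0.033 for JUND. On replicate 2 alone it was 1.17 for FOSB, 0.011 for JUN, 0.16 for JUNB, -0.46 for JUND, -0.84 for EGR1 and 0.026 for IER3. Leaving out replicates 1, 2 or 3 gave -0.73 to 0.27 for FOSB, -0.19 to 0.54 for EGR1 and -0.61 to 0.15 for MYC. With a slide block, or within slide 2, FOSB was at 0.67 and JUNB at 1.60. Between slides 3 and 1, FOS was at -0.68 and MYC at 0.30. Without background correction FOSB was at 0.035. The other values kept their sign: 161 kept their side of the threshold, and 8 passed it, IER3 without SU8686 and FOSB, FOSL1, JUN, JUNB, JUND, EGR1 and IER3 between slides 3 and 1. There slide and response are confounded. With a difference of at least 1 also required, only FOSB, JUNB and IER3 of these passed, as did 33.8% of all genes. FOSB and FOSL2, near background, have only bounds in most lines.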
